A study of Homo sapiens with 12 samples.

Results

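The imprinted genes DLK1, MEG3, RTL1, MEG8, DIO3, H19, IGF2, KCNQ1OT1, PEG10 and SGCE were chosen by name, with the deposited classes of their H2A.Z and H2A.Zac regions already known, and every region that overlapped a gene body or the 10 kb to each side of it (GENCODE release 44, hg38) was taken. Of the 158028 regions in the 6 deposited lists, 54 met this rule, 19 of 63442 for H2A.Z and 35 of 94586 for H2A.Zac. They fell into 4 loci, with 32 regions at DLK1, MEG3, RTL1, MEG8 and DIO3 on chromosome 14, 4 at H19 and IGF2 and 11 at KCNQ1OT1 on chromosome 11, and 7 at PEG10 and SGCE on chromosome 7. Of the 10 genes, 8 held at least 1 region, while DIO3 and IGF2 held none of either mark.

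The cells were K562, a human chronic myeloid leukemia line with erythroid features, in which the endogenous EP400, the scaffold of the TIP60 chromatin complex, carried a degradation tag. EP400 was expressed in its place from the AAVS1 safe-harbor site, either full length (WT) or without the SANT and HD domains, which bind TRRAP (ΔTRRAP), and all samples of both lines received 500 nM dTAGV-1 for 24 h to remove the tagged protein. Each line was 1 clone, so the EP400 form and the clone cannot be told apart. The 12 libraries were 2 biological replicates each of input, H2A.Z ChIP and H2A.Zac ChIP for the 2 lines, and the deposited lists compare ΔTRRAP with WT after the replicates were merged.

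A region higher in WT is called lost in ΔTRRAP, a region higher in ΔTRRAP is called gained, and the rest are unchanged. The value of a region is its log10 likelihood ratio between the lines, which was above 3 in the changed lists. It grows with the number of reads as well as with the difference between the lines and cannot be read as a fold. The lists hold no value per replicate and no read counts, so the depth is unknown, no spread between replicates can be given and no test was made. Wilson 95% intervals of shares cover counting error only. Regions of different classes can be parts of 1 peak, and neighboring regions share their source. H2A.Z and H2A.Zac regions were present at GATA1, TAL1, KLF1 and LMO2, genes of the erythroid program that were looked up after the data were seen, with 3 to 6 H2A.Z and 4 to 13 H2A.Zac regions each.

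Imprinted genes are transcribed mainly from the chromosome inherited from a given parent, and each cluster is governed by a differentially methylated control region. H2A.Z is a histone H2A variant enriched at promoters and enhancers, and its acetylated form H2A.Zac marks active ones. The reads were not assigned to parental chromosomes, so a region describes both copies together. Within the DLK1 cluster, DLK1, RTL1 and DIO3 are paternally expressed coding genes, and MEG3 and MEG8 are maternally expressed long noncoding RNAs that share their strand with a long series of microRNAs. H19 is a maternally expressed noncoding RNA and IGF2 the paternally expressed growth factor gene beside it. KCNQ1OT1 is a paternally expressed noncoding RNA antisense to KCNQ1, and PEG10 and SGCE are paternally expressed coding genes with divergent starts.

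At the 10 genes, regions were mostly lost in ΔTRRAP. Of the 19 H2A.Z regions, 10 were lost, against 19.8% of all H2A.Z regions, and 4 were gained, against 14.1%. Of the 35 H2A.Zac regions, 23 were lost, against 25.9% of all H2A.Zac regions, and 5 were gained, against 26.3%. Because the genes were chosen with these classes known, the counts describe the loci and support nothing further. Lost regions made up 71.4% (45.4 to 88.3%) of the changed H2A.Z regions at the genes and 82.1% (64.4 to 92.1%) of the changed H2A.Zac regions, against 58.4% and 49.6% over all regions. Most of these losses lay in the DLK1 cluster: without it, losses were 1 of 4 changed regions for H2A.Z and 6 of 10 for H2A.Zac. The H2A.Z share then fell to 25%, below that over all regions. The H2A.Zac share was 60% (31.3 to 83.2%), still above the 49.6% over all regions, on few regions.

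In the DLK1 cluster, 9 of 11 H2A.Z regions and 17 of 21 H2A.Zac regions were lost, and 1 region of each mark was gained. The lost H2A.Zac regions had a median ratio of 25.6, with a range from 4.2 to 96.7, against a median of 8.27 for all lost H2A.Zac regions. The lost H2A.Z regions had a median ratio of 9.39, with a range from 4.69 to 17.8, against 5.95. The lost regions of the cluster were also wider than usual, with median widths of 1743 bp for H2A.Zac and 1053 bp for H2A.Z against 702 and 525 bp over all lost regions.

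**Figure D1:**
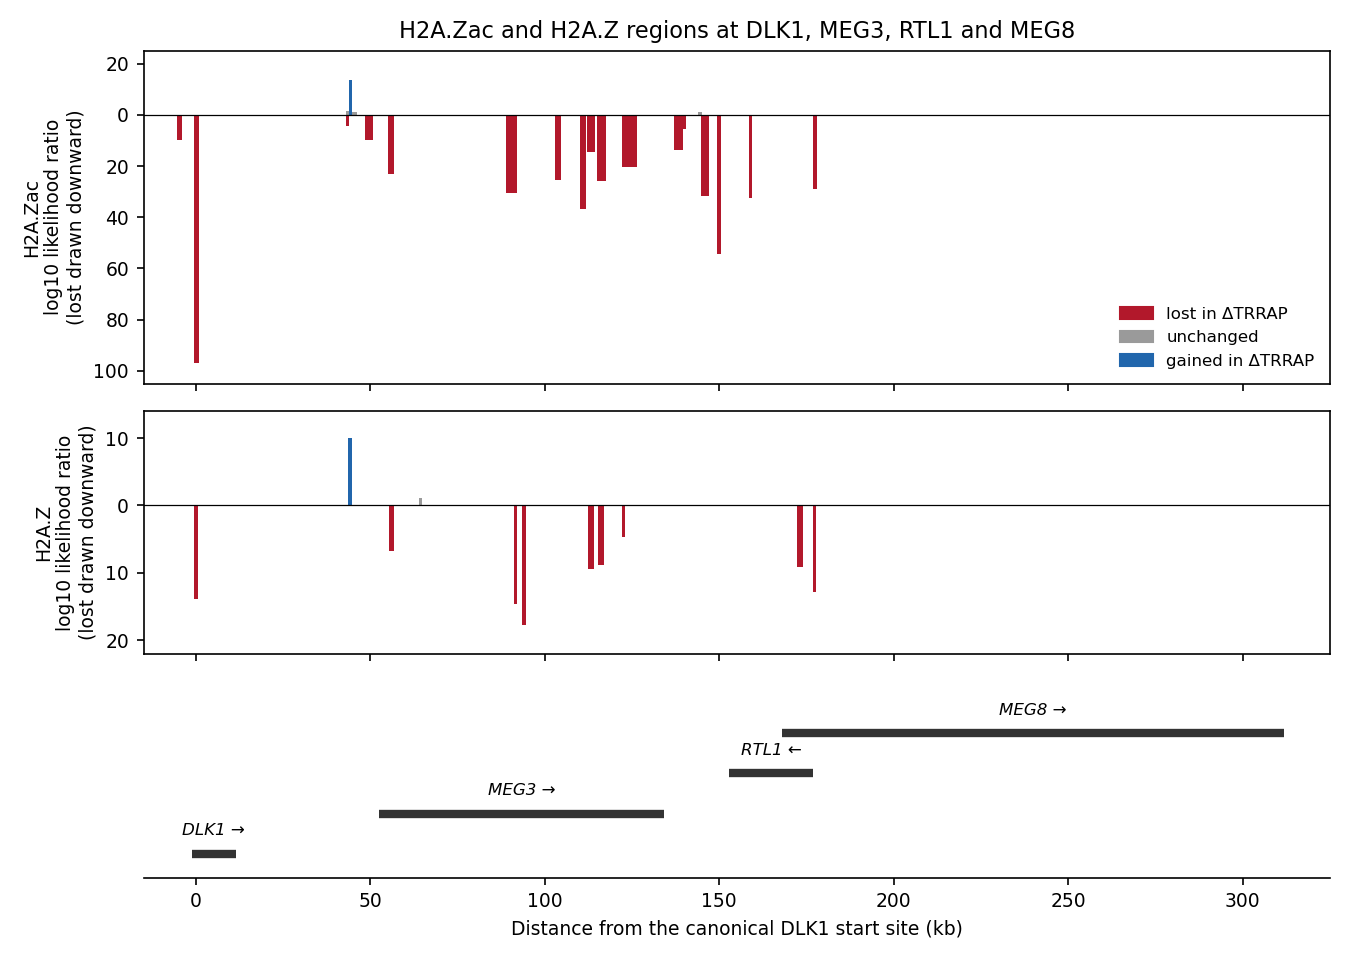
Likelihood ratios of H2A.Zac (top) and H2A.Z (middle) regions by distance in kb from the canonical DLK1 start, with lost regions drawn downward and gained and unchanged ones upward, and the gene spans below with arrows for the direction of transcription. Bars narrower than 0.9 kb are drawn 0.9 kb wide, and the ratio scales of the marks differ. Lost regions run from upstream of DLK1 to the start of RTL1, the lowest bar is the DLK1 start (96.7), and the gained pair lies between DLK1 and MEG3 (13.6 and 10.1).

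DLK1, a transmembrane relative of the Notch ligands, held 3 regions and all 3 were lost. The H2A.Zac region at chr14:100726204-100727613, 1410 bp wide, covered the canonical start and exon 1 with a ratio of 96.7, which placed it 13 of 24482 in the list of lost H2A.Zac regions. The lost H2A.Z region at chr14:100726490-100727296 lay wholly inside it, with a ratio of 13.9 and rank 386 of 12592. DLK1 thus had the highest ratio of the 54 regions in H2A.Zac, whereas in H2A.Z regions in MEG3 were higher. The third region, H2A.Zac at chr14:100721589-100722780, lay 4.11 kb upstream of the canonical start with a ratio of 9.76.

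The sequences under the lost regions at coding genes of the cluster are shown because they differ in base composition while sharing the class. Each is a stretch of hg38, plus strand, from inside a lost region and outside annotated UTRs, with every CG dinucleotide in capitals. The stretch just upstream of the DLK1 start, chr14:100726612-100726891, holds 40 CG dinucleotides in 280 bases. The stretch upstream of RTL1, chr14:100904029-100904328, holds 8 in 300 bases and also lies within MEG8.
DLK1 start: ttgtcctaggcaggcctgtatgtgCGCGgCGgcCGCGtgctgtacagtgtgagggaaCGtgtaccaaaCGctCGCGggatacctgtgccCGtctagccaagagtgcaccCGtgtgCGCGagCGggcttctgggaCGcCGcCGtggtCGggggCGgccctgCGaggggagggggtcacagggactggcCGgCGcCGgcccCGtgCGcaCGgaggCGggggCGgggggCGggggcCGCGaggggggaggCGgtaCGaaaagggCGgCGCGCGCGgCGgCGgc
RTL1 upstream: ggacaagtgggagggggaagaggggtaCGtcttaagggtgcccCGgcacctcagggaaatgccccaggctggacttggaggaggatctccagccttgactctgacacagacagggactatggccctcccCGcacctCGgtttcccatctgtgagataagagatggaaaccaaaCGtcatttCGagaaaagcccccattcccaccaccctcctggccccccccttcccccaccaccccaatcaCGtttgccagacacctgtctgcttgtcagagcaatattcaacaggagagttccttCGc

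MEG3, a long noncoding RNA, held 23 regions, the most of the 10 genes. Inside its span of 81.6 kb, all 7 H2A.Zac regions were lost, and of 7 H2A.Z regions 6 were lost and 1 was unchanged. The highest H2A.Zac ratio there was 36.9, at chr14:100837102-100838615 (rank 556 of 24482), in introns of transcripts beyond the canonical one. The highest H2A.Z ratio of the cluster was 17.8, at chr14:100820484-100821536 in canonical intron 1 (rank 140 of 12592), where no H2A.Zac region lay. The widest region of the cluster was a lost H2A.Zac region at chr14:100848877-100853359, 4483 bp with a ratio of 20.3, which contained the hairpin of MIR770. Counting all H2A.Zac regions in order along the chromosome, 10 in a row were lost over MEG3 and its flanks, from 100775256 to 100867120, which spans 91.9 kb. Runs of lost H2A.Zac regions numbered 15547 over the genome, of which 48 held at least 10 regions, and the longest held 27.

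MEG3 has 50 annotated transcripts with several starts. The canonical GENCODE transcript starts at 100779410, and the nearest H2A.Zac regions to each side, both lost, lay 1.75 kb upstream (chr14:100775256-100777664, ratio 9.88) and 2.51 kb downstream (chr14:100781923-100783778, ratio 23). RefSeq places the MEG3 promoter further downstream, at chr14:100825858-100826157, and the nearest regions lay 3.72 kb (H2A.Zac, chr14:100829880-100831622, ratio 25.6) and 4.32 kb away (H2A.Z, chr14:100820484-100821536). Neither of these starts was covered by a region, although lost regions flanked both. The lost H2A.Zac region chr14:100829880-100831622 covered the start of another MEG3 transcript.

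The gained regions of the cluster lay between DLK1 and MEG3. H2A.Z was gained at chr14:100770408-100771702 (ratio 10.1, rank 886 of 8965) and H2A.Zac at chr14:100770841-100771610 (ratio 13.6, rank 3854 of 24844), 7.71 and 7.8 kb upstream of the MEG3 span, and the H2A.Zac region lay wholly inside the H2A.Z region. This place was mixed: beside the gained H2A.Zac region stood unchanged regions of 882 and 1547 bp and a lost one of 345 bp with a ratio of 4.2.

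RTL1, a retrotransposon-derived coding gene expressed from the strand opposite to MEG8, held 5 H2A.Zac and 2 H2A.Z regions, all lost except 1 unchanged H2A.Zac region shared with MEG3. The lost H2A.Zac region at chr14:100903723-100905016, with a ratio of 29.1, began 1 base upstream of the RTL1 start and held the lost H2A.Z region chr14:100903862-100904494, with a ratio of 12.8. A narrow H2A.Zac region at chr14:100876612-100876990, 379 bp wide, lay downstream of RTL1 and inside MIR493HG. Its ratio was 54.2, second in the cluster to the DLK1 start and 151 of 24482 in its list. Further lost H2A.Zac regions lay at chr14:100885588-100886118 in canonical intron 3 (ratio 32.4) and at chr14:100871765-100873915, downstream of the gene (ratio 31.8). The lost H2A.Z region chr14:100899196-100900948, with a ratio of 9.17, lay in canonical intron 2 of RTL1.

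MEG8, a noncoding RNA with a span of 144 kb, held 4 regions, all lost and all shared with RTL1, and the remaining length of the gene held none. The lost H2A.Zac region chr14:100903723-100905016 beside the RTL1 start also covered the start of a MEG8 transcript. The lost H2A.Z region inside it lay just upstream of that MEG8 start. The lost H2A.Z region chr14:100899196-100900948 lay 1.25 kb downstream of a MEG8 start. These regions thus cannot be assigned to RTL1 rather than MEG8. The stretch from MIR379 to MIR656, which begins in MEG8 and runs past its end, contains 40 hairpins of the RefSeq table, and each lay 53.7 to 98.4 kb from the nearest H2A.Zac region. Of the 50 hairpins listed between DLK1 and DIO3, 1 was overlapped by an H2A.Zac region, MIR770, and 0 by an H2A.Z region. Between MEG8 and DIO3, 1 of 3 H2A.Z regions and 3 of 5 H2A.Zac regions were lost and none was gained. DIO3, which inactivates thyroid hormone, lay 20.9 kb from the nearest H2A.Z region and 20.8 kb from the nearest H2A.Zac region, and these were both unchanged, with ratios of 0.22 and 1.13. The longer flanking gene DIO3OS, whose span includes DIO3, held 2 lost, 3 unchanged and 0 gained H2A.Z regions. It held 1 lost, 2 unchanged and 0 gained H2A.Zac regions.

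The losses did not end at the 10-kb flanks. The first H2A.Zac region outside the flank of DLK1, 10.8 kb upstream at chr14:100710286-100714910, was lost with a ratio of 25.1, whereas the region inside the flank, 2.92 kb away, had a ratio of 9.76. Between BEGAIN, the coding gene upstream, and the flank of DLK1, 17 of 27 H2A.Zac regions were lost and 10 were unchanged, and 3 of 10 H2A.Z regions were lost and 7 unchanged. When unchanged regions were set aside, 22 changed H2A.Zac regions in a row were lost from 100606220 to 100770449, of which 3 belonged to the genes. The next 18 changed H2A.Zac regions after the gained one were lost from 100775256 to 101630539, of which 14 belonged to the genes. For H2A.Z, 11 changed regions in a row were lost from 100782080 to 101629541, of which 8 belonged to the genes. Over the genome, changed H2A.Zac regions formed 7910 runs of losses. Of these, 42 were at least as long as the run of 22 and 83 at least as long as the run of 18, and the longest held 49. For H2A.Z, 214 of 2814 runs were at least as long as the run of 11, and the longest held 270.

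Within 1 Mb of the cluster, with the regions of the genes left out, losses made up 76.7% (59.1 to 88.2%) of the 30 changed regions of H2A.Z and 68.2% (58.9 to 76.3%) of the 107 of H2A.Zac, while 61 of 91 H2A.Z and 81 of 188 H2A.Zac regions were unchanged. On chromosome 14 as a whole, these shares were 55.1% and 47.1%. The cluster itself had 90% (59.6 to 98.2%) for H2A.Z and 94.4% (74.2 to 99%) for H2A.Zac. Within 1 Mb, the surroundings of the genes thus had a higher share of losses than the chromosome. In narrower windows, chosen after seeing the data, the H2A.Z share was 66.7% within 500 kb (41.7 to 84.8%) and within 200 kb (35.4 to 87.9%). Both intervals cover the 55.1% of the chromosome. The H2A.Zac share was 73.7% within 500 kb (61 to 83.4%) and 83.9% within 200 kb (67.4 to 92.9%). The part of copy number or other regional differences between the clones was not tested.

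Lost regions of the cluster included those at gene starts. Taking a region as TSS-proximal when it overlapped the 2-kb window centered on the start of any annotated gene, 3 of 3 proximal H2A.Z and 8 of 8 proximal H2A.Zac regions were lost. Over all proximal regions, 10.2% of H2A.Z and 16.6% of H2A.Zac regions were lost. The 8 starts included small RNAs and unnamed transcripts as well as DLK1 and RTL1, since MIR770, MIR337, MIR136 and MIR493HG start near lost regions.

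H19 held 4 regions, none over the gene itself. They lay beyond its 3′ end, over the noncoding genes MRPL23-AS1 and LINC01219. The H2A.Zac region chr11:1989305-1991913, 2609 bp wide, was lost with a ratio of 29.8 (rank 1042 of 24482) and contained the lost H2A.Z region chr11:1990891-1991428, with a ratio of 12.7 (rank 569 of 12592). H2A.Zac at chr11:1987793-1988321 was lost with a ratio of 5.26, and the adjoining region of 766 bp was unchanged. The nearest region to the canonical H19 start was 12.6 kb away and to the RefSeq promoter 9.3 kb away. The stretch under the lost H2A.Z region is shown because it is the only lost H2A.Z region at the genes outside the DLK1 cluster. It holds 17 CG dinucleotides at chr11:1991010-1991309 (hg38, plus strand, CG in capitals).
H19 downstream: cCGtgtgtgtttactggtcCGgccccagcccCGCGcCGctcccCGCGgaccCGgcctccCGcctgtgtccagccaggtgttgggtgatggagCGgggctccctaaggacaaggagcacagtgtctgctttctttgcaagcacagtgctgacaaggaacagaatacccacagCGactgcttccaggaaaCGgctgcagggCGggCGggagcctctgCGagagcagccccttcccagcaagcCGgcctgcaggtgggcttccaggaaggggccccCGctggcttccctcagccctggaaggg

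IGF2 encodes a fetal growth factor. Its nearest H2A.Zac region, 19.1 kb away at chr11:2109051-2110006, was lost with a ratio of 8.83. Its nearest H2A.Z region was 36.7 kb away and unchanged. The first H2A.Zac region outside the H19 flank, 11.7 kb from the gene, was lost with a ratio of 20.9. In a wider view, 14 changed H2A.Zac regions in a row were lost from 1896799 to 2302763 around H19 and IGF2, of which 2 belonged to the genes. Over the genome, 163 of 7910 such runs were at least as long. Within 1 Mb, 83.3% of 24 changed H2A.Z and 77.5% of 71 changed H2A.Zac regions were lost, against 59.7% and 48.8% on chromosome 11, and 42 H2A.Z and 36 H2A.Zac regions were unchanged.

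KCNQ1OT1 showed the reverse of DLK1 at its start. All 5 changed regions within 1 kb of the start were gained, and none was lost. H2A.Zac was gained over the start itself at chr11:2699497-2700037 (541 bp, ratio 5.83), upstream at chr11:2700221-2700738 (ratio 5.36) and downstream at chr11:2698883-2699244 (ratio 4.68). H2A.Z was gained at chr11:2699287-2699975 (ratio 4.57) and at chr11:2700243-2700779 (ratio 4.04). An unchanged H2A.Z region (ratio 2.22) lay within the upstream gained ones, and 2 H2A.Zac regions were unchanged, 1 between the gained ones and 1 between the gained and the lost ones upstream. The gained ratios were low, with a median of 5.36 for H2A.Zac against 6.87 over all gained H2A.Zac regions, and 4.3 for H2A.Z against 5.48. The 3 lost regions, all H2A.Zac, lay further out: 17.8 kb inside the gene at chr11:2681144-2682230 (ratio 20.4), and 1.15 and 2.93 kb upstream at chr11:2701157-2701416 (ratio 6.2) and chr11:2702933-2704095 (ratio 13.9).

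Changed regions around KCNQ1OT1 were more often lost than gained. Within 200 kb, with the regions of the genes left out, the 28 H2A.Z regions were 14 lost and 14 unchanged, and the 44 H2A.Zac regions 29 lost, 11 unchanged and 4 gained. Within 1 Mb, 25% of 84 H2A.Z and 37.9% of 145 H2A.Zac regions were lost, against 19.8% and 25.9% over all regions, and 58 and 63 were unchanged. Of the changed ones within 1 Mb, 80.8% and 67.1% were lost. The 1-Mb surroundings of KCNQ1OT1 and of H19 and IGF2 overlap, so they are not separate samples of the chromosome.

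PEG10, a retrotransposon-derived coding gene, and SGCE, which encodes ε-sarcoglycan, start beside each other on opposite strands, so both genes share the same 7 regions. H2A.Z over both starts was unchanged, at chr7:94655022-94656798, with a ratio of 0.416. H2A.Zac within that region was gained at chr7:94655618-94656173 (556 bp, ratio 8.3), over the canonical start and exon 1 of SGCE and 0.152 kb from the nearest PEG10 start. In intron 1 of PEG10, H2A.Zac was lost at chr7:94657310-94657803 (494 bp, ratio 5.18), and further in, H2A.Z was gained at chr7:94658692-94659090 (399 bp, ratio 3.69). The lost region lay wholly on an unchanged H2A.Z region (ratio 0.196) and overlapped an unchanged H2A.Zac region (ratio 1.67). The gained H2A.Z region overlapped an unchanged H2A.Z region (ratio 1.74). The remaining part of SGCE held none. The stretch under the gained H2A.Zac region is shown because acetylation and H2A.Z fell into different classes there. The part printed, just inside SGCE from its canonical start, is chr7:94655746-94656045 (hg38, plus strand, CG in capitals) and holds 24 CG dinucleotides.
SGCE beside its start: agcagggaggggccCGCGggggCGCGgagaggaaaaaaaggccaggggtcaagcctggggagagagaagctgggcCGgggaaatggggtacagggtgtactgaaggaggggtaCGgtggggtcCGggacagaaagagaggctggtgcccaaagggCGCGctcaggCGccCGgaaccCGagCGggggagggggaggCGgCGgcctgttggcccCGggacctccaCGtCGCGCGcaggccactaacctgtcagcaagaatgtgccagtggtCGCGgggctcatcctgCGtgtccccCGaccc

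**Figure D2:**
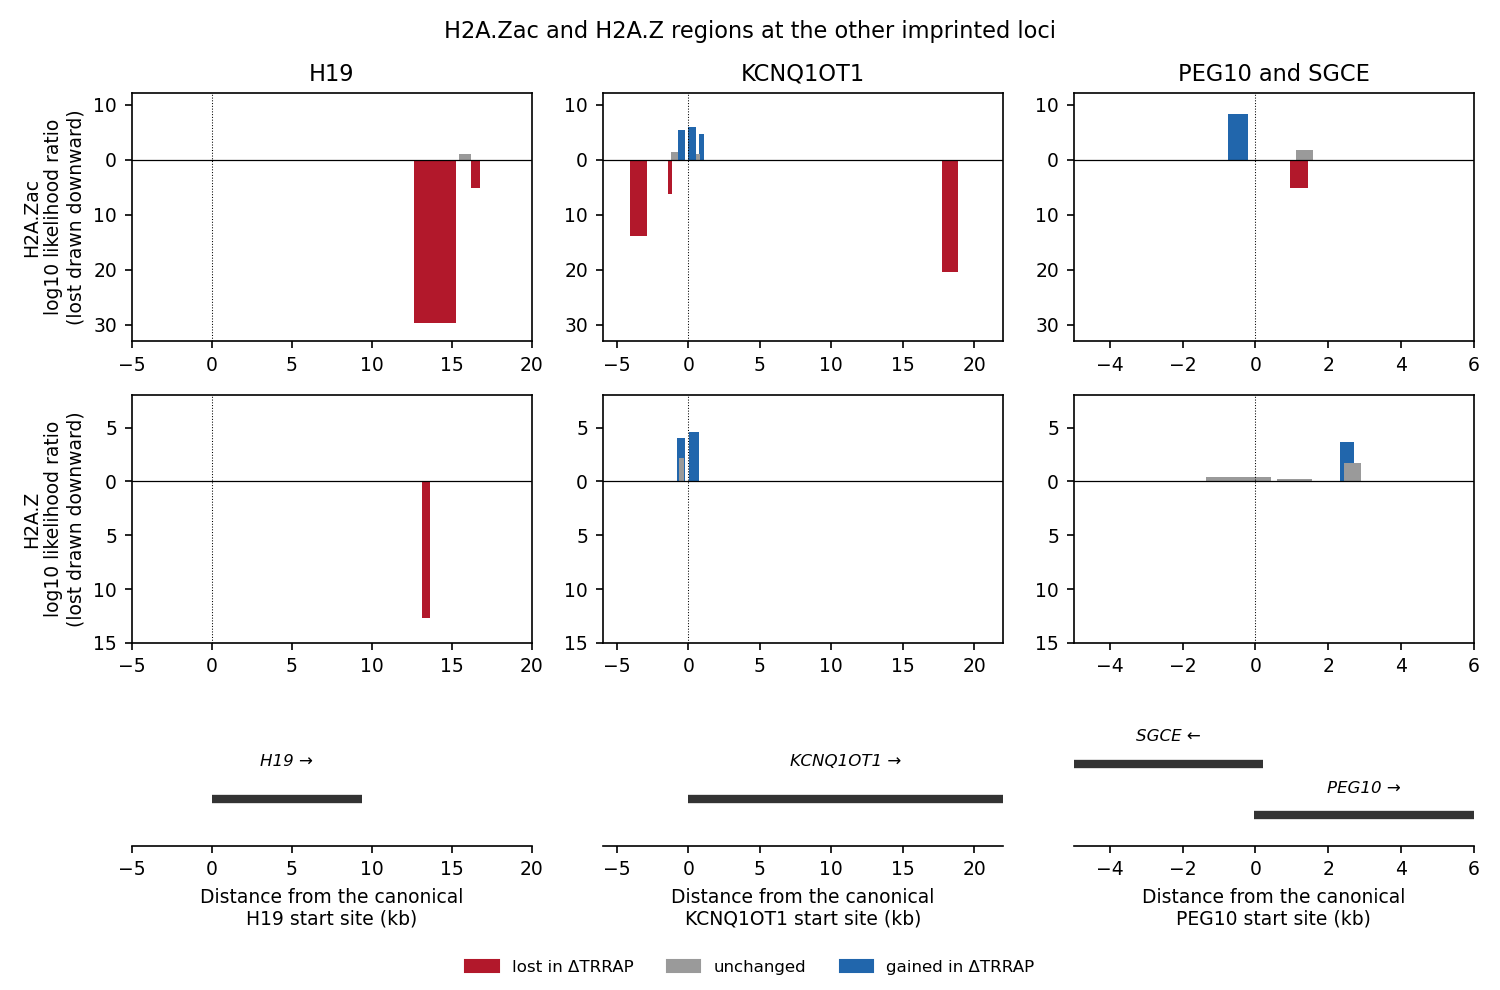
Likelihood ratios of H2A.Zac (top) and H2A.Z (middle) regions at H19, KCNQ1OT1, and PEG10 and SGCE by distance in kb from the canonical start named on each axis, in the direction of transcription of that gene, with lost regions drawn downward and gene spans below. The dotted line is the start. At H19 the regions lie beyond the gene's end and the changed ones are lost, at KCNQ1OT1 gained regions (4.04 to 5.83) sit at the start and lost ones further out, and upstream of PEG10, at the SGCE start, gained H2A.Zac (8.3) lies on unchanged H2A.Z.

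Around PEG10 and SGCE within 1 Mb, 53.3% of 15 changed H2A.Z and 43.8% of 32 changed H2A.Zac regions were lost, against 58.4% and 50.6% on chromosome 7. Near the other 3 loci, the shares were higher, from 67.1 to 83.3%. Set side by side, the share of changed H2A.Zac regions that were lost was 17 of 18 at the DLK1 cluster, 2 of 2 at H19, 3 of 6 at KCNQ1OT1 and 1 of 2 at PEG10 and SGCE. For H2A.Z it was 9 of 10, 1 of 1, 0 of 2 and 0 of 1. With a flank of 50 kb, the lost share at KCNQ1OT1 was 76.9% of 13 for H2A.Zac and 50% of 4 for H2A.Z. The counts outside the DLK1 cluster are small and their intervals wide, from 18.8 to 81.2% for H2A.Zac at KCNQ1OT1, and the differences between loci were not tested.

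**Figure D3:**
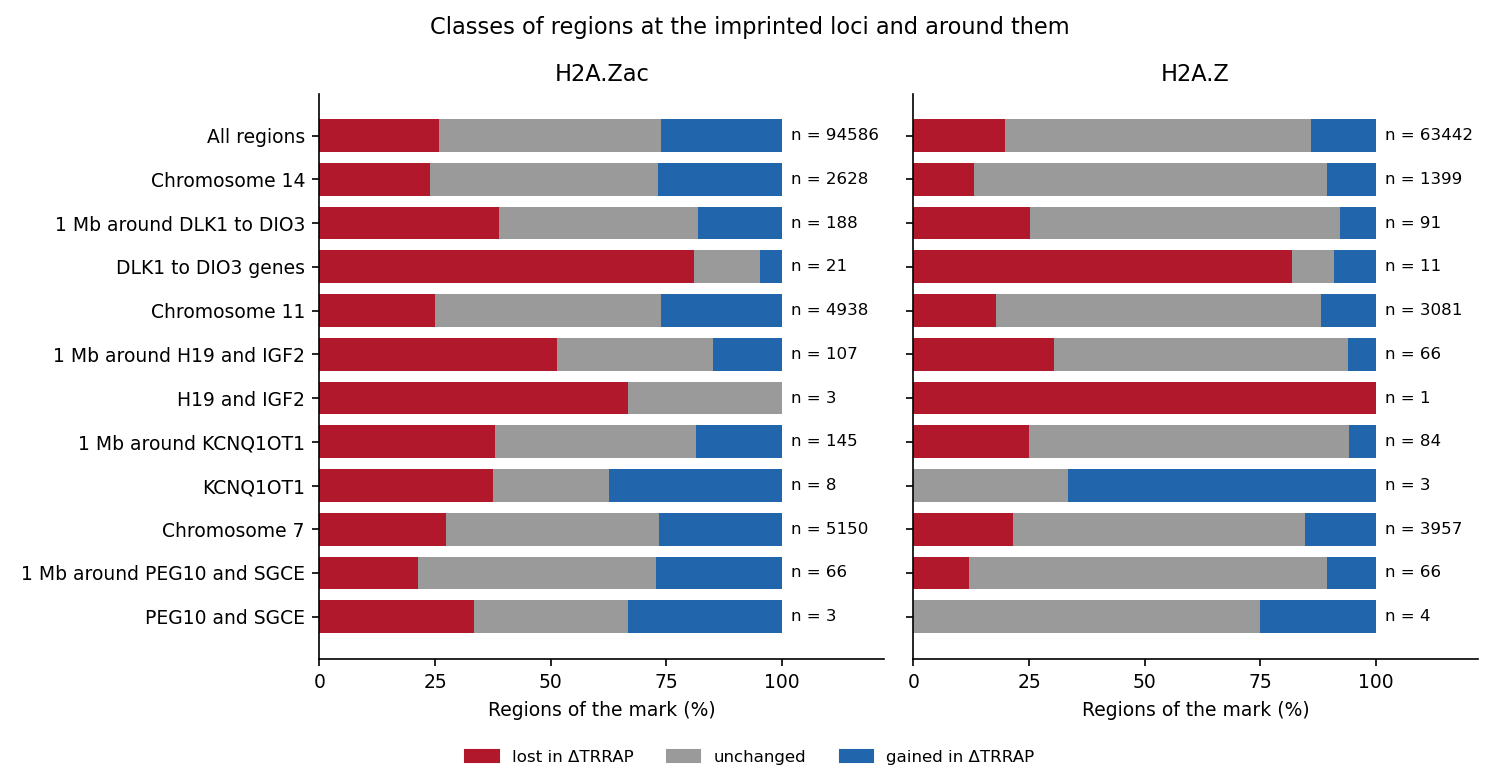
Share of H2A.Zac (left) and H2A.Z (right) regions that were lost, unchanged or gained in ΔTRRAP, in percent, for all regions, each chromosome, the 1 Mb to each side of a locus without the regions of the 10 genes, and the locus, with n regions at the end of each bar. The DLK1 cluster is lost in 81% (H2A.Zac) and 81.8% (H2A.Z), and several other bars rest on 1 to 8 regions.

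The ratios of the changed regions spread through the lists. The DLK1 cluster took 1 place among the first 100 lost H2A.Zac regions, the DLK1 start, and its other lost regions ranged from rank 151 down to 22777. The gained regions of KCNQ1OT1 ranked between 15827 and 20400 of 24844 for H2A.Zac, and 6408 and 7637 of 8965 for H2A.Z. In the plot of ratios by rank, the gained regions of these loci lie in the lower part of their lists, apart from the pair upstream of MEG3 and the H2A.Zac region at the SGCE start (rank 9063 of 24844).

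**Figure D4:**
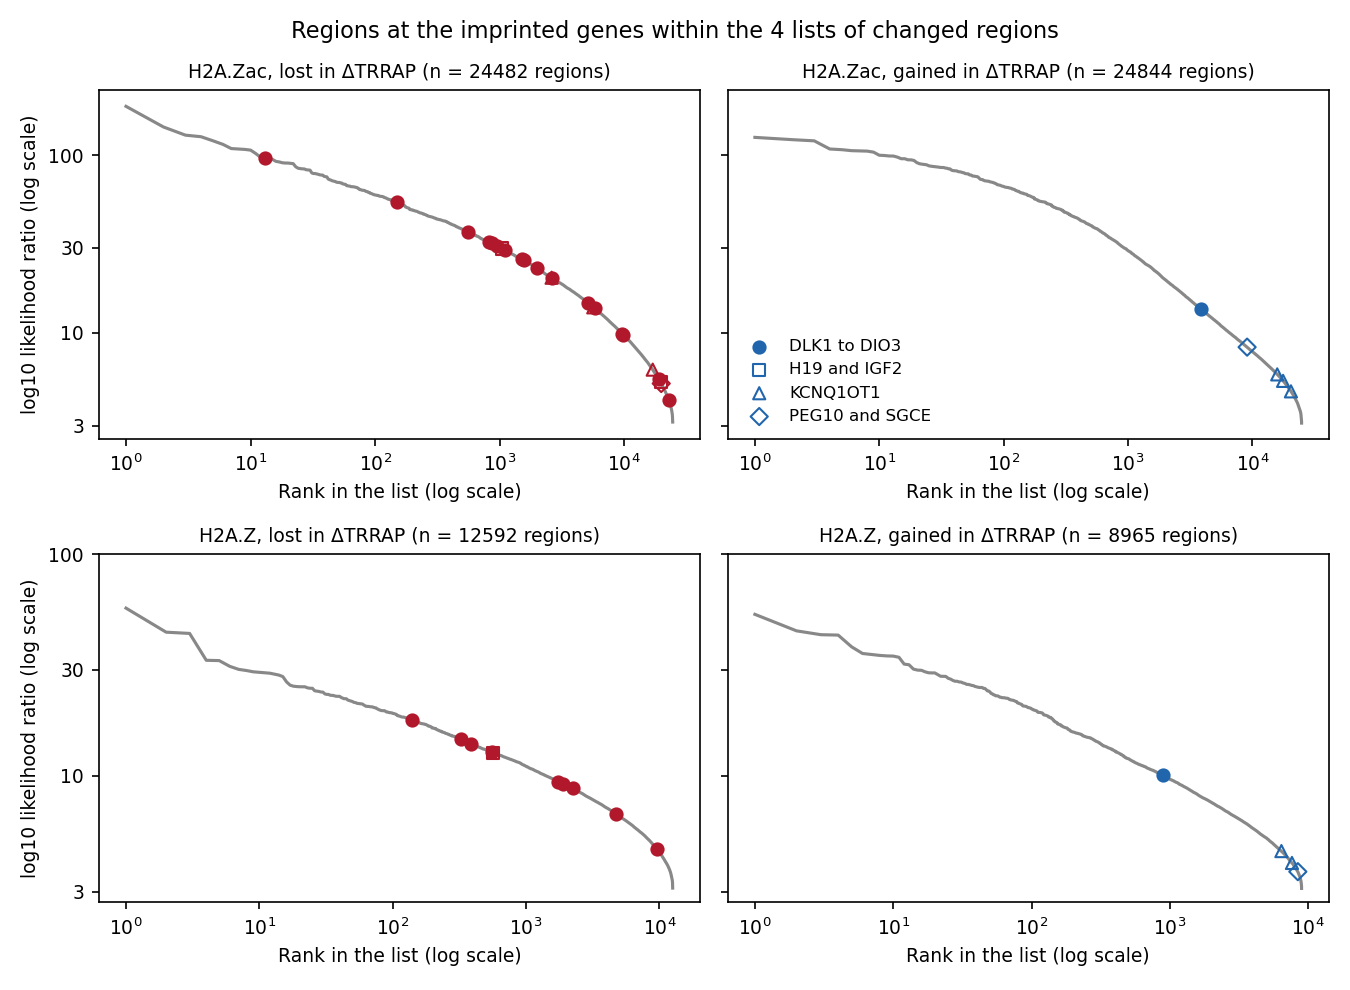
Likelihood ratio (log scale) by rank in the list (log scale) for the lost and gained regions of H2A.Zac (top) and H2A.Z (bottom), with all regions of a list as the gray line and the regions at the imprinted genes as symbols by locus. The DLK1 start stands at rank 13 with a ratio of 96.7, and the gained KCNQ1OT1 regions lie between 4.04 and 5.83.

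Overlap of the marks was counted by class, with no test between classes. Counting an overlap when at least 25% of a region was covered by regions of the other mark, 8 of the 10 lost H2A.Z regions lay on lost H2A.Zac regions (65.9% over all lost H2A.Z regions) and 3 of the 4 gained H2A.Z regions lay on gained H2A.Zac regions (65.8%). In the other direction, 5 of the 23 lost H2A.Zac regions lay on lost H2A.Z regions (28.6% over all), and 6 of the 23 lay on any H2A.Z region, 26.1% (12.5 to 46.5%), against 55% over all lost H2A.Zac regions. Of the 5 gained H2A.Zac regions, 3 lay on gained H2A.Z regions (18.7% over all). Of all H2A.Zac regions at the genes, 13 of 35 lay on any H2A.Z region, 37.1% (23.2 to 53.7%), against 60.5% over all H2A.Zac regions. With an overlap of 1 bp the share at the genes was 54.3%, and the share over all regions was not computed. The 25% rule leaves out wide regions: the lost H2A.Zac regions chr11:1989305-1991913 and chr14:100815647-100818934 each contain a whole lost H2A.Z region. They were covered by 20.6% and 18.1%. Acetylated regions without a listed H2A.Z region included the region downstream of RTL1 with a ratio of 54.2 and the MEG3 region with a ratio of 36.9. Absence from the H2A.Z lists means that no region passed the filters of the study, not that H2A.Z is absent.

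Lost H2A.Zac regions at the genes had a median GC content of 54.9% and 2.09 CG dinucleotides per 100 bases, against 49.6% and 1.72 over all lost H2A.Zac regions. The 5 gained H2A.Zac regions had medians of 66.4% and 6.12, against 48.6% and 1.87, and the lost H2A.Z region at the DLK1 start had 73.1%. CG-rich starts were thus found in both classes, at DLK1 among the lost and at KCNQ1OT1 among the gained regions.

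Motifs were searched on both strands of the 300 bases at the center of each region, which for the 13368 of 158028 narrower regions reach past their ends. TGCCGC, the hexamer bound by ZFP57 when methylated, was found in 5 of 35 H2A.Zac and 4 of 19 H2A.Z regions at the genes, against 9.41% and 11.5% of all regions. GNGGNGGCA, part of the CTCF core motif, was found in 5 and 3, against 9.44% and 10.2%. CACGTG, the E-box, was found in 2 and 0 (5.91% and 5.42% of all regions), and GCCATNTT, the YY1 core, in 0 and 1 (6.96% and 6.87%). A match of letters is a description and not a binding site. Both gained H2A.Z regions at KCNQ1OT1 held TGCCGC.

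Among 46 other imprinted genes listed by name, regions of every class were found. They held 58 lost, 82 unchanged and 43 gained H2A.Zac regions, 57.4% (47.7 to 66.6%) of the changed ones lost, and 35 lost, 86 unchanged and 16 gained H2A.Z regions, 68.6% (55 to 79.7%) lost. Over all regions, these shares are 49.6% and 58.4%. KCNQ1, which contains KCNQ1OT1, held 55 regions, of which 44 were not counted above. Both intervals cover the share over all regions. Without KCNQ1, a step chosen after seeing the data, the shares were 47.9% for H2A.Zac and 64.1% for H2A.Z. Without the genes on chromosome 20, also left out after seeing the data, the shares were 54.4% for H2A.Zac and 55.6% for H2A.Z. The difference between these genes and the 10 genes was not tested. The highest ratios of lost H2A.Zac regions at starts belonged to GNAS (120), which encodes a stimulatory G protein subunit, L3MBTL1 (83.5) and MCTS2 (82.6), all on chromosome 20, where 74.4% of all changed H2A.Zac regions and 91.2% of all changed H2A.Z regions were lost. Those of gained H2A.Zac regions belonged to NDN (62.8), which encodes necdin, KCNQ1 (25.5, a region shared with TRPM5) and ZDBF2 (10.9). For H2A.Z, the highest lost ratios were at L3MBTL1 (33.2), GNAS (19.1) and SLC22A18 (9.78), and the highest gained ones at NDN (16), GRB10 (9.4) and WT1 (6.67). CMKLR2, FAM50B, PEG13, INS, MEG9, MAGEL2, PEG3 and ZIM2 held no region of either mark. The DLK1 start ratio of 96.7 was thus exceeded by GNAS among these genes.

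Flanking genes were mixed. Around the DLK1 cluster, BEGAIN had a lost H2A.Zac region at a start (ratio 27.5) and SLC25A29 a lost one (18.7), whereas WARS1 and WDR25, which share a start region, and PPP2R5C had gained H2A.Zac regions (9.89 and 22.1). The 10 flanking genes together held 13 lost and 12 gained H2A.Zac regions (24.5% and 22.6%, against 25.9% and 26.3% over all regions) and 4 lost and 3 gained H2A.Z regions (16% and 12%, against 19.8% and 14.1%). H2A.Z at starts was gained at WARS1 and WDR25 (9.59) and PPP2R5C (4.15) and lost at SLC25A29 (3.69). The 18 genes around H19 and KCNQ1OT1 held 46 lost against 13 gained H2A.Zac regions and 17 lost against 3 gained H2A.Z regions, which is 52.9% and 14.9% of their H2A.Zac and 34.7% and 6.12% of their H2A.Z regions. Much of this came from 1 long gene. KCNQ1 by itself held 23 lost and 5 gained H2A.Zac regions, and 10 lost and 2 gained H2A.Z regions. The counts therefore do not describe the 18 genes evenly. At KCNQ1 and MRPL23, 11 and 4 of the regions had been counted at the 10 genes already. Among lost H2A.Zac regions at starts, the ratios were highest at ASCL2 (41.9), SLC22A18 (20.6) and the cell cycle inhibitor gene CDKN1C (12.6), and among gained ones at TRPM5 and KCNQ1 (25.5, 1 shared region) and NAP1L4 (9.09). Lost H2A.Z regions at starts were highest at SLC22A18 (9.78), ASCL2 (8.38) and PHLDA2 (7.09). The 12 genes around PEG10 held 6 lost and 12 gained H2A.Zac regions and 5 lost and 3 gained H2A.Z regions, which is 18.2% and 36.4% of their H2A.Zac and 16.7% and 10% of their H2A.Z regions. At starts, gained H2A.Zac regions were highest at GNG11 (70), COL1A2 (6.98) and PDK4 (4.65), and lost ones at PDK4 (11.9) and PON2 (7.59). For H2A.Z, gained regions lay at GNG11 (15.4) and ASB4 (4.39) and a lost one at PON2 (6.68). MEG9, INS and TH held no region. CALCR, TFPI2, ASB4, PPP1R9A, ASCL2, KCNQ1, CDKN1C, SLC22A18, PHLDA2, INS and MEG9 stand in the list of other imprinted genes too.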

How the data were processed

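H2A.Z and H2A.Zac ChIP-seq libraries were aligned by the authors to hg38 with Bowtie2 2.4.5, peaks were called with MACS2 2.2.7.1, replicates were merged, and the lines were compared with MACS2 bdgdiff at a cutoff of 3. Regions were kept where at least 25% lay in peaks with an IDR of 0.05. The score of a region as deposited by the authors is the log10 likelihood ratio. The 6 lists were used as deposited, and all sizes, overlaps and ranks were computed from them with Python 3.11.15, pandas 2.3.3, numpy 2.4.6 and scipy 1.17.1. Overlap functions were checked on simulated data and by a second count with bedtools 2.31.1, with 0 differences for 63442 regions. Genes, transcripts and exons came from GENCODE release 44, a later release than that of the study, and hairpins and promoters from RefSeq. No region passed a chromosome end. The members and gene lists (other imprinted, flanking, imprint upkeep, and IGF2 and DLK1 partner genes) were chosen with earlier results of these data known. In each list, the genes named are the 3 per mark and direction with the highest score of a region overlapping the 2-kb window centered on a start of any transcript, and those with no region. Some flanking genes that overlap or lie nearest to a member are named as well. CALCR, TFPI2 and PPP1R9A are named only for standing in several lists. A few others named outside these rules are said to be so. Alternatives were other flanks, score cutoffs, widths, merging, midpoints, canonical transcripts and overlaps. Since merged replicates leave no value per sample, no test was made. Input libraries and gene expression were not analysed here.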

Additional observations from a re-analysis of the deposited data

How the results depend on the processing

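No paired analysis was possible because the lists hold merged replicates, and no replicate could be left out for the same reason. At the 10 genes, the values that moved most were as follows. Without a flank, lost H2A.Zac regions fell from 23 to 12, unchanged to 2 and gained to 3, and gained H2A.Z to 2. With a 2-kb flank, lost H2A.Zac were 14 and unchanged 3, and with 50 kb lost H2A.Zac were 45, unchanged 16 and unchanged H2A.Z 18. At a ratio of at least 5, gained H2A.Z were 1 and the lost share of changed H2A.Z was 90%. At a ratio of at least 10, lost H2A.Z were 5, gained 1 for each mark, and the lost share of changed H2A.Zac was 94.1%. Merging within 1 kb gave 3 unchanged H2A.Z and 3 gained H2A.Zac, and regions of at least 500 bp gave 2 unchanged H2A.Z and 4 unchanged H2A.Zac. In base pairs, 93% of changed H2A.Zac was lost. In the DLK1 cluster, the lost shares were 100% for both marks without a flank and with 2 kb. At KCNQ1OT1, the H2A.Zac share was 100% at a ratio of at least 10 and 76.9% with a 50-kb flank (H2A.Z, 50%), and at PEG10 and SGCE 0% among regions of at least 500 bp. Among the other imprinted genes, the lost H2A.Z share rose to 80% and 90.9% at ratios of at least 5 and 10, and the H2A.Zac share to 79.1% at 10. With an overlap of 1 bp, 54.3% of H2A.Zac regions lay on H2A.Z. The causes of these changes were not tested.

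Leaving out a locus or genes and changing the neighborhood were chosen after seeing the data. Without the DLK1 cluster, 1 H2A.Z and 6 H2A.Zac regions were lost, 25% and 60% of the changed ones, and 4 H2A.Zac were unchanged. Without KCNQ1OT1, 2 H2A.Z and 2 H2A.Zac were gained, and without PEG10 and SGCE, 2 H2A.Z were unchanged. Within 200 kb, the lost H2A.Zac share was 83.9% around the DLK1 cluster, 86.7% around H19 and IGF2 and 87.9% around KCNQ1OT1, and within 500 kb it was 64.5% around H19 and IGF2 and 87% around KCNQ1OT1. For H2A.Z it was 100% around KCNQ1OT1 at both distances and 0%, of 1 changed region, around PEG10 and SGCE. Without the IGF2BP genes, the lost share at the IGF2 and DLK1 partners was 55.6% in place of 27.3% for H2A.Z and 52.4% in place of 31.4% for H2A.Zac. Unknown depth limits how far a missing region can be read.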

Other observations

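Genes that keep imprints and genes that act with IGF2 and DLK1 were also looked up by name. The IGF2 and DLK1 partners held 16 gained and 6 lost of 47 H2A.Z regions and 24 gained and 11 lost of 68 H2A.Zac regions. The gained shares were 34% and 35.3%, against 14.1% and 26.3% over all regions, and the lost shares 12.8% and 16.2%, against 19.8% and 25.9%. The IGF2BP genes supplied 12 of the gained H2A.Z and 14 of the gained H2A.Zac regions. Without them, a step chosen after seeing the data, the partners held 4 gained and 5 lost H2A.Z and 10 gained and 11 lost H2A.Zac regions. The gained shares were then 20% for H2A.Z and 26.3% for H2A.Zac, and the lost shares 25% and 28.9%. The difference from all regions was not tested. IGF2BP2 and IGF1R here and CTCF, DNMT3B and DNMT3L in the next paragraph are named after their values were seen. The mRNA-binding IGF2BP1, IGF2BP2 and IGF2BP3 had 3, 6 and 3 gained H2A.Z regions and 3, 6 and 5 gained H2A.Zac regions, with 1 lost H2A.Z region at IGF2BP1 and no lost H2A.Zac region. The receptor genes IGF2R and INSR had 3 and 4 gained H2A.Zac regions. INSR also had 1 lost region of each mark, and IGF1R had no gained and 2 lost H2A.Zac regions. At starts, the highest gained ratios were at INSR (20.7), IGF2BP3 (13.9) and NOTCH1 (11) for H2A.Zac and at IGFBP4 (7.54), IGF2BP1 (6.44) and IGF2R (5.79) for H2A.Z. DLK2, the paralog of DLK1, had a lost region of each mark at its start, with ratios of 10.6 for H2A.Zac and 4.17 for H2A.Z, and lost H2A.Zac regions also lay at starts of IGFBP4 (7.95) and NOTCH1 (4.49). IGFBP2 held no region.

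The 15 imprint upkeep genes held 25 lost and 25 gained of 96 H2A.Zac regions and 9 lost and 7 gained of 57 H2A.Z regions. These shares, 26% and 26% for H2A.Zac and 15.8% and 12.3% for H2A.Z, lie near those over all regions. Of the DNA methyltransferase genes, DNMT1 had 6 lost, 4 unchanged and 0 gained H2A.Zac regions, and DNMT3A had 7 lost, 7 unchanged and 2 gained. DNMT3B had 3 lost, 4 unchanged and 0 gained, and DNMT3L had 1 of each. Other genes of the list went the other way, with 0 lost and 4 gained H2A.Zac regions at UHRF1 and the same at SMCHD1. Lost H2A.Zac regions at starts had the highest ratios of the list at DNMT1 (10.7) and DNMT3A (10.5), followed by ZFP57 (6.84). Gained H2A.Zac regions at starts were highest at ARID4A (7.02), SMCHD1 (6.46) and DNMT3A (6.02). For H2A.Z, lost regions at starts were found at DNMT3A (8.21), UHRF1 (5.64) and DNMT1 (4.03) and gained ones at DNMT1 (5.28) and SMCHD1 (3.79). CTCF, which insulates IGF2 from enhancers at the H19 control region, had 1 lost and 2 unchanged regions of each mark. DPPA3 held no region.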
